A study of Mus musculus with 10 samples.

Results

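Transcripts of 4 molecular chaperones, Dnajc3, Hspa5 and Serpinh1 of the endoplasmic reticulum and Hsp90ab1 of the cytosol, were followed in mouse splenocytes. The genes were taken by their printed names among 597 named genes of a cDNA membrane, on which each has 2 spots, so that they account for 8 of 1194 named spots. The names read as the inhibitor of the RNA-activated kinase PKR for Dnajc3, GRP78 for Hspa5, HSP47 for Serpinh1 and HSP84, or HSP90 beta, for Hsp90ab1. They were chosen by their measured difference between the genotypes on these arrays, so that difference is given for these 4 genes as a description and without a test.

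Splenocyte RNA came from CD22DE12 transgenic mice (7 samples) and from wild-type mice (3 samples), all of the FVB genetic background and killed at 6 weeks of age. Each sample's total RNA was copied into cDNA labelled with P32 and hybridised to 1 membrane. Neither the labels nor the files state which promoter drives the transgene, which cells express it or whether the 7 samples come from 1 founder line. No label says outright that the 10 samples are separate mice, so a p-value here measures the spread between these samples, some of which may be technical.

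Chaperones bind unfolded or partly folded proteins and keep them from aggregating. Hspa5, also called BiP, is the HSP70 of the endoplasmic reticulum; it binds newly made secretory and membrane proteins, among them immunoglobulin heavy chains in B cells, and it holds the stress sensors of that compartment inactive until unfolded proteins accumulate. Dnajc3, or P58IPK, is a J-domain partner of Hspa5 and also an inhibitor of PKR and of the related kinase PERK, which slow translation by phosphorylating eIF2 alpha. Serpinh1 is a chaperone dedicated to procollagen, and Hsp90ab1 is the constitutive cytosolic HSP90, which keeps many kinases and steroid receptors in a form that can be activated. Hspa5 and Dnajc3 are induced by the unfolded protein response, whereas Serpinh1 is known as a target of heat shock factor.

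Promoters are shown because 2 of them carry the element through which the unfolded protein response is known to act. The 250 bases before the annotated start are given 5′ to 3′ on the coding strand, from RefSeq on assembly GRCm38.p6, for Dnajc3 (chr14:118937682-118937931, plus strand), Hspa5 (chr2:34771840-34772089, plus strand) and Serpinh1 (chr7:99353240-99353489, minus strand). Capitals mark an endoplasmic reticulum stress element, the motif bound by ATF6 together with NF-Y.
Dnajc3: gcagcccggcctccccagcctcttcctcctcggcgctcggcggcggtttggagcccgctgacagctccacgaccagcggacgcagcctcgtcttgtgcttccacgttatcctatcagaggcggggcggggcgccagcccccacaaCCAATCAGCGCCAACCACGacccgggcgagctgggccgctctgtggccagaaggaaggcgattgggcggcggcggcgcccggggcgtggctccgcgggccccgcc
Hspa5: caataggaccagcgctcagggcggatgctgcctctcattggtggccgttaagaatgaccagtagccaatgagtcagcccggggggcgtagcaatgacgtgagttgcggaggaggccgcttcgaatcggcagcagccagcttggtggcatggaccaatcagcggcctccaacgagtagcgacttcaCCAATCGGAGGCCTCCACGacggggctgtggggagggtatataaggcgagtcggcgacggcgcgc
Serpinh1: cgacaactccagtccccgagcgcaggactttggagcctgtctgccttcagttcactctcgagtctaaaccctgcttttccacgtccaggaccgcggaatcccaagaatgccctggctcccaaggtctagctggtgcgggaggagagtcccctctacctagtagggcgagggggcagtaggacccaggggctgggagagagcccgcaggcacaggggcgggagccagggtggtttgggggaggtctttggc
The element was searched on both strands as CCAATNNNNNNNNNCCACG. Dnajc3 held 1 copy, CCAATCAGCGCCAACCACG, from 105 to 87 bases before its start. Hspa5 held 1 copy, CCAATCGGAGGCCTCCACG, from 65 to 47 bases before its start. The same letters occurred in 37 of 32851 mouse promoters of this length (0.1126%). The CCAAT box alone, which forms the first letters of the element, was in 33.85% of promoters. It occurred at 2 places in the Dnajc3 window and at 4 in that of Hspa5, the element included. A heat shock element of 3 units, written GAANNTTCNNGAA and searched on both strands, was in 0.4657% of promoters and in 0 of these 3 windows. These are matches of letters and not measured sites. The promoter set used here had no entry for Hsp90ab1, so its promoter was neither shown nor searched.

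Spot values are mean grey levels of the radioactive image, read with a ring of local background around each spot. Detection was read from the code in the spot files: a gene counted as above background where 1 or both of its spots had code 0. By that measure all 4 chaperones were above background on 10 of 10 arrays. Between 463 and 550 genes were above background per array. The file headers give a date and time for each array, and sittings of image quantification were inferred here from gaps between those times. The second sitting held transgenic replicates 6 and 7 and no wild-type array. The median signal of these 2 arrays over all genes was 4.45 and 4.06 grey levels above background. It was 13.8 to 18.7 on the 8 arrays of the first sitting. Grey levels are therefore compared within the first sitting only, and normalized log2 signal over all 10 arrays. No level is set against that of another gene, since each gene has its own probe. In splenocyte RNA of mixed cell types, fewer cells of a type and less RNA per cell cannot be told apart.

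Dnajc3 had the closest duplicate spots of the 4 genes and the most even levels among the transgenic arrays. Its signal above local background was 114, 94.3, 113, 111 and 104 grey levels on transgenic replicates 1 to 5, and 60.2 and 76.2 on replicates 6 and 7. The wild-type arrays read 81.5, 82.5 and 88.7 grey levels. Within the first sitting every transgenic array lay above every wild-type array, with means of 107 ± 8.20 (SD, n = 5) and 84.3 ± 3.87 (SD, n = 3) grey levels and a ratio of 1.27. The median ratio over the 357 genes above background on all arrays was 1.10, and 82 of them had a ratio at least as high as that of Dnajc3. Groups free of overlap with the transgenic arrays on the higher side were found for 2.85% of all 597 genes on this scale.

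After normalization Dnajc3 stood at 7.19, 7.09, 7.26, 7.13, 7.16, 7.19 and 7.21 log2 units on transgenic replicates 1 to 7 and at 7.05, 6.90 and 7.11 on the wild-type arrays. All 7 transgenic values lay above the wild-type mean and 6 above the highest wild-type value, transgenic replicate 2 falling just below wild-type replicate 3. The means were 7.18 ± 0.056 (SD, n = 7) and 7.02 ± 0.11 (SD, n = 3), a difference of 0.16 (SE 0.049) on the log2 scale. The difference was 0.09 without wild-type replicate 2, the lowest array. The duplicate spots differed by a median of 0.032 log2 units. The 2 arrays of the second sitting lay within the range of the other 5 transgenic arrays, although their grey levels were the lowest of the group.

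Hspa5 was the gene in which the second sitting stood apart. The transgenic arrays read 38.2, 31.6, 55.6, 39.2 and 39.8 grey levels above background in the first sitting and 7.45 and 10.8 in the second. The wild-type arrays read 23.2, 31.4 and 22.5. In the first sitting the means were 40.9 ± 8.85 (SD, n = 5) and 25.7 ± 4.98 (SD, n = 3), a ratio of 1.59, and 19 of the 357 genes had a ratio at least as high. The groups did not overlap, as for 2.85% of all 597 genes with the transgenic arrays higher on this scale. Transgenic replicate 2 at 31.6 and wild-type replicate 2 at 31.4 were nearly level.

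On the normalized scale Hspa5 stood at 6.31, 6.23, 6.42, 6.28, 6.49, 6.09 and 6.16 on transgenic replicates 1 to 7 and at 6.13, 6.22 and 6.15 on the wild-type arrays. The 5 transgenic arrays of the first sitting lay above the highest wild-type array, and the 2 of the second sitting lay among or below the wild-type arrays. In the first sitting alone, normalized anew, 24 of all 597 genes had groups free of overlap, counting both directions. The Hspa5 means over all arrays were 6.28 ± 0.14 (SD, n = 7) and 6.17 ± 0.044 (SD, n = 3), a difference of 0.12 (SE 0.077). With the first sitting alone, normalized anew, it was 0.19. The duplicate spots differed by a median of 0.082 log2 units, and by 0.19 on transgenic replicate 1.

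Serpinh1 varied most among the wild-type arrays. Its signal was 81.0, 77.2, 111, 87.2 and 80.2 grey levels above background on the first 5 transgenic replicates, 61.9 and 54.5 on the replicates of the second sitting, and 35.3, 72.6 and 84.4 on the wild-type arrays. Wild-type replicate 1 was the lowest of all 10, and wild-type replicate 3 lay inside the transgenic range. The first-sitting means were 87.3 ± 13.7 (SD, n = 5) and 64.1 ± 25.6 (SD, n = 3), a ratio of 1.36 that 49 of the 357 genes reached.

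Normalized Serpinh1 was 6.86, 6.89, 7.22, 6.86, 7.02, 7.19 and 6.92 on transgenic replicates 1 to 7 and 6.44, 6.77 and 7.07 on the wild-type arrays. All 7 transgenic arrays exceeded the wild-type mean, and 2, replicates 3 and 6, exceeded the highest wild-type array. The means were 6.995 ± 0.15 (SD, n = 7) and 6.76 ± 0.31 (SD, n = 3), and the difference of 0.23 (SE 0.13) was the largest of the 4. It was 0.07 without wild-type replicate 1 and 0.38 without wild-type replicate 3, so its size rests on which wild-type arrays enter. Local background at its spots passed 100 grey levels on transgenic replicate 1 alone, and without that array the difference was 0.26.

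Hsp90ab1, the cytosolic member, had no settled direction. Its signal was 123, 129, 87.2, 93.4 and 121 grey levels above background on transgenic replicates 1 to 5, 70.6 and 81.2 on replicates 6 and 7, and 104, 123 and 92.3 on the wild-type arrays. The first-sitting means, 111 ± 19.1 (SD, n = 5) and 106 ± 15.5 (SD, n = 3), gave a ratio of 1.04, below the median ratio of all genes. In the first sitting 3 transgenic arrays read 121 or more and 2 read 93.4 or less, and the wild-type arrays lay in both ranges and between them.

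The normalized values were 7.32, 7.40, 6.90, 6.93, 7.28, 7.29 and 7.26 on transgenic replicates 1 to 7 and 7.28, 7.33 and 7.15 on the wild-type arrays. Transgenic replicates 3 and 4 lay below every other array, and the other 5 transgenic arrays above the wild-type mean. The means were 7.20 ± 0.20 (SD, n = 7) and 7.26 ± 0.094 (SD, n = 3), a difference of -0.06 (SE 0.11). The same 2 arrays had the highest local background at these spots, 124 and 133 grey levels, and spots at 96.3% and 97.4% of the brightest spot of their array. Local background passed 100 grey levels on 3 arrays, transgenic replicates 1, 3 and 4, and without them the difference was 0.05. Without transgenic replicate 3 alone it was -0.0098, and without wild-type replicate 3 it was -0.11. It was 0.08 when local background was left uncorrected. It was 0.03 when arrays were centred on the housekeeping genes, which put the median difference of all genes at 0.065. No direction is therefore given for Hsp90ab1.

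**Figure D1:**
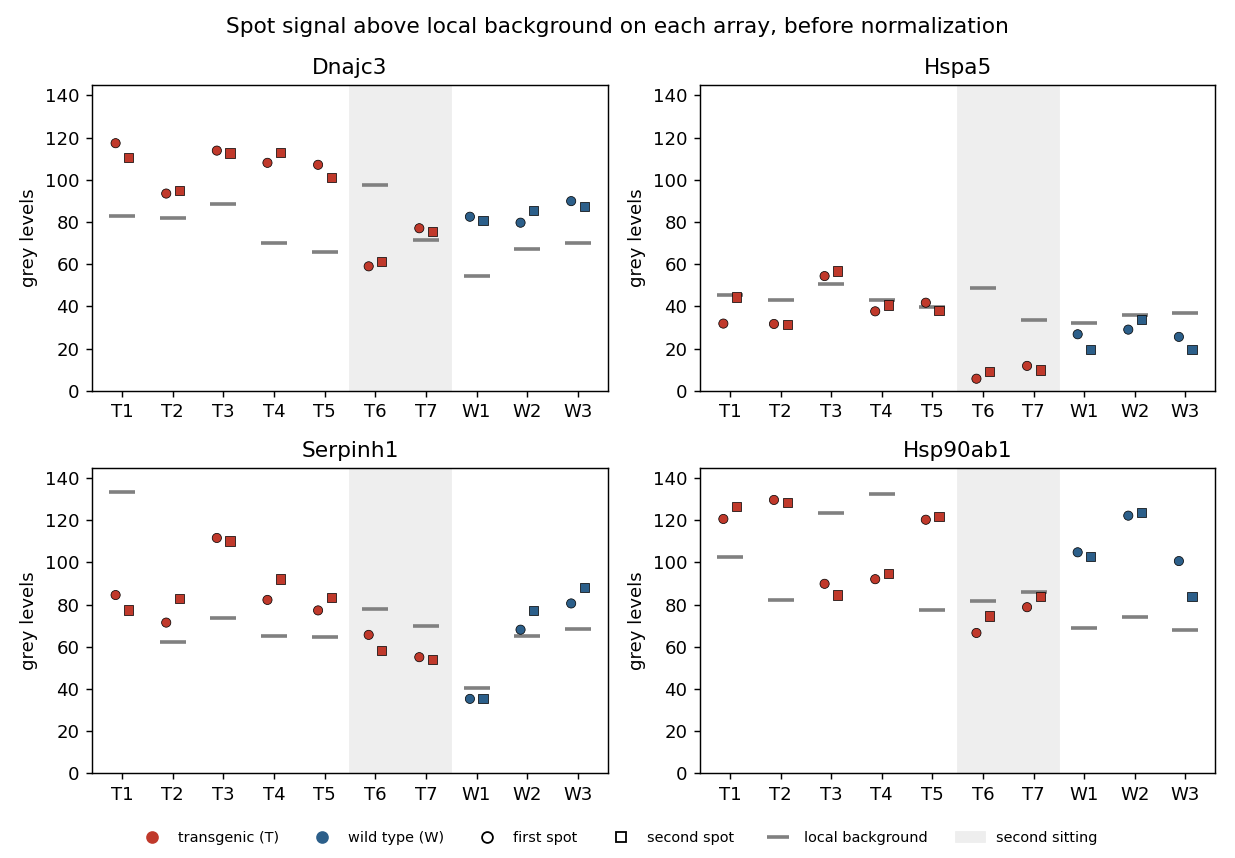
Signal above local background (vertical axis, grey levels) of the 2 spots of each chaperone on each of the 10 arrays, with transgenic arrays in red, wild-type arrays in blue, grey bars for the local background and a shaded band for the second sitting. The Dnajc3 spots lie at 93.5 or more on the first 5 transgenic arrays and at 89.9 or less on the wild-type arrays, Hspa5 is lowest in the second sitting, and the background bars of Hsp90ab1 are highest on transgenic replicates 3 and 4.

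**Figure D2:**
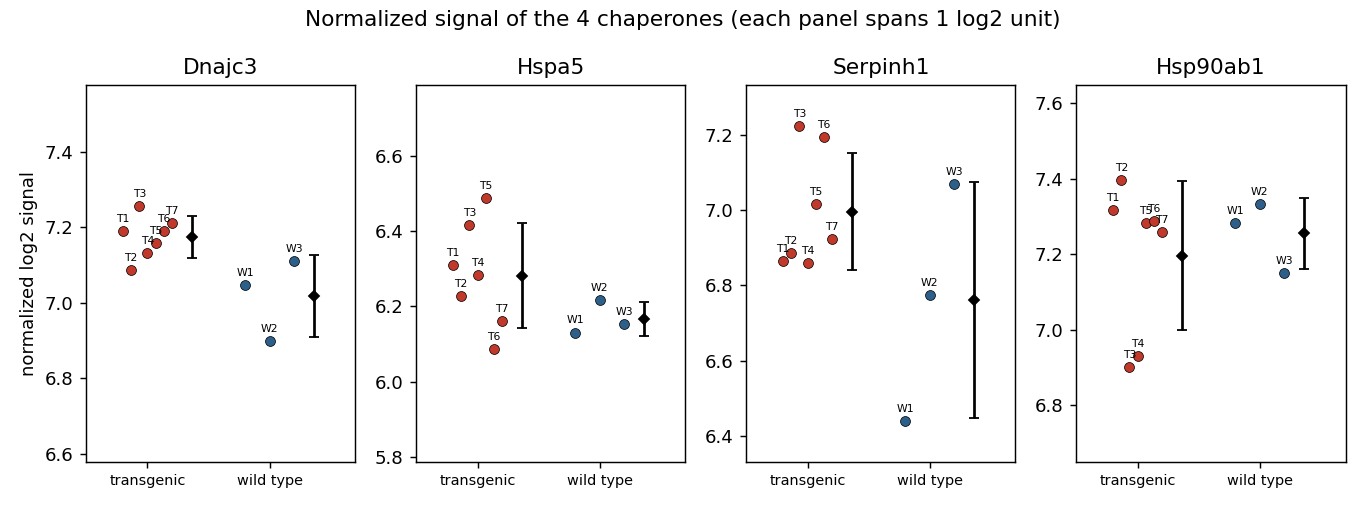
Normalized log2 signal (vertical axis, each panel spanning 1 log2 unit) of each chaperone on 7 transgenic and 3 wild-type arrays, each point 1 array, with diamonds and bars for the mean and SD of each group. The means are higher in the transgenic arrays by 0.16 for Dnajc3, 0.12 for Hspa5 and 0.23 for Serpinh1, and the groups overlap in all 4 panels.

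Set against the whole membrane, 3 of the 4 chaperones had a higher mean in the transgenic arrays, as did 51.8% of all genes. The normalized groups overlapped for 4 of 4 chaperones; they were free of overlap for 0.503% of genes with the transgenic arrays higher and for 1.17% with them lower. The median difference of all 597 genes was 0.0018, with a 5th percentile of -0.13 and a 95th percentile of 0.14. Counting upward differences only, and the chaperone itself, a difference at least as high as that of Hspa5 was found for 43 genes, of Dnajc3 for 19 and of Serpinh1 for 5. The largest differences were 0.35 upward and -0.53 downward. In limma's test across all genes 0 of 597 genes (0%) passed a Benjamini-Hochberg adjusted p of 0.05, the smallest adjusted p being 0.511. The unadjusted p was under 0.05 for 44 genes (7.37%), with higher transgenic means for 15 (2.51%) and lower means for 29 (4.86%). The offset of 50 grey levels added before the logarithm makes log2 differences smaller, and their standard errors too. With no offset Dnajc3, Hspa5 and Serpinh1 differed by 0.25 (SE 0.19), 0.34 (SE 0.27) and 0.45 (SE 0.27). With an offset of 200 they differed by 0.07 (SE 0.022), 0.04 (SE 0.027) and 0.10 (SE 0.056).

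**Figure D3:**
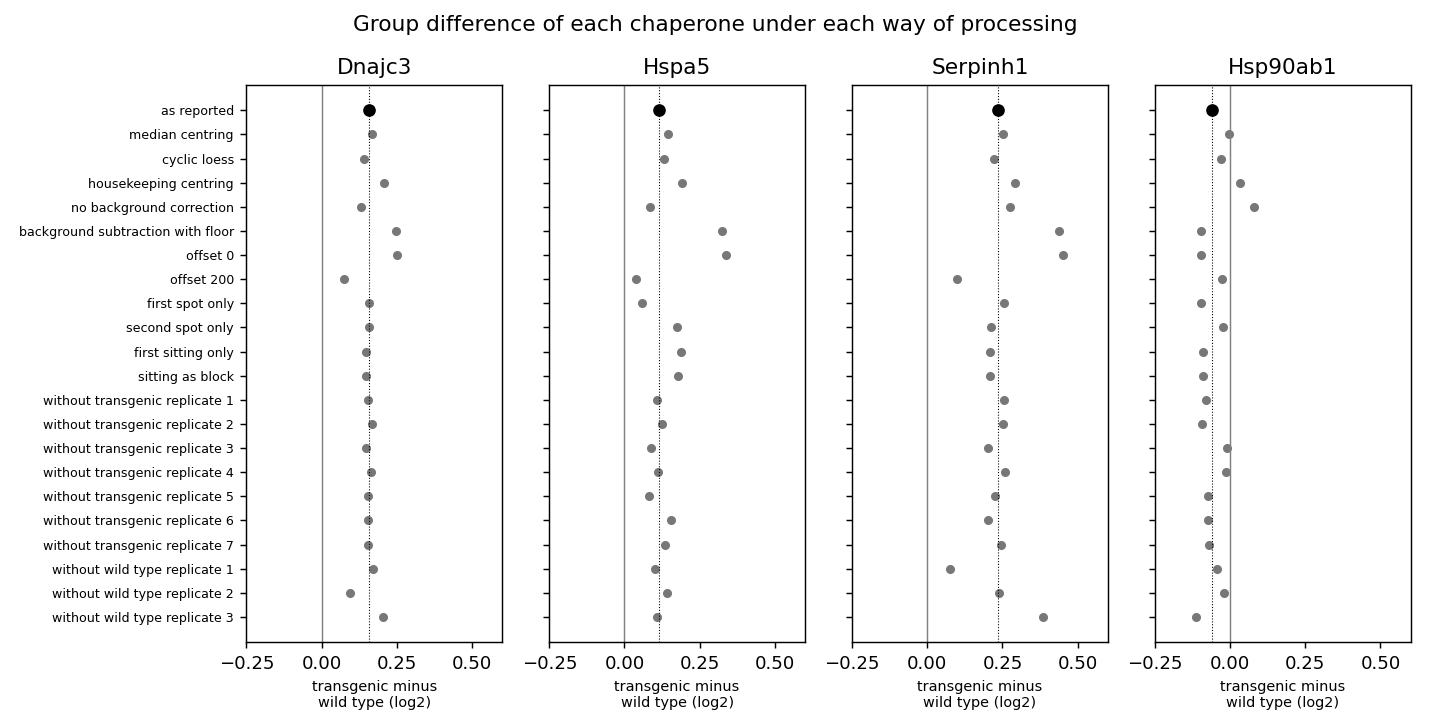
Transgenic minus wild-type difference of each chaperone (horizontal axis, log2 units) under the ways of processing for which it was computed (rows). Further rows leave out each array in turn. The reported value is a black point and a dotted line. Dnajc3, Hspa5 and Serpinh1 stay to the right of 0 throughout, over ranges that reach from 0.04 to 0.45, and Hsp90ab1 lies on both sides of 0.

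Whether the chaperones were high on the same arrays was asked within the transgenic group, where the genotype does not enter. Transgenic replicate 3 was the highest array for Dnajc3 and Serpinh1, the second highest for Hspa5 and the lowest for Hsp90ab1. It was the only array of the 7 above the group's median for all 3 reticulum chaperones. Otherwise the orders differed: transgenic replicate 6 was the second highest array for Serpinh1 and the lowest for Hspa5, and transgenic replicate 5 was the highest for Hspa5 and the fifth for Dnajc3. Dnajc3, Hspa5 and Hsp90ab1 are printed in the same block of the membrane and Serpinh1 in another. The part of position in these orders was not tested.

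Over the 7 transgenic arrays 0 of the 6 pairs of chaperones passed a two-sided exact permutation test of Pearson's r after Benjamini-Hochberg adjustment over the 6 pairs. Dnajc3 and Serpinh1 had the highest correlation, r = 0.62 (exact p = 0.141, adjusted p = 0.834) and Spearman's rho = 0.54 (exact p = 0.236, adjusted p = 0.80). Of all 177906 pairs of genes on the membrane, 8.33% had an r at least as high over the same arrays. Dnajc3 and its partner Hspa5, which share the promoter element shown above, had r = 0.12 (exact p = 0.796, adjusted p = 0.899) and rho = 0.11 (exact p = 0.840, adjusted p = 0.906), and 40.5% of all gene pairs reached that r. The value depended on the normalization: in place of quantile normalization, r of this pair was 0.75 with median centring, 0.57 with cyclic loess and 0.76 with housekeeping centring. Hspa5 and Serpinh1 had r = 0.06 (exact p = 0.899, adjusted p = 0.899) and rho = 0.07 (exact p = 0.906, adjusted p = 0.906). Without transgenic replicate 6, where Hspa5 was lowest at 7.45 grey levels above background, r of this pair was 0.62. Without transgenic replicate 3 it was -0.30. Their r was 0.65 with median centring, 0.21 with cyclic loess and 0.70 with housekeeping centring. Under each of these 3 normalizations, too, 0 of the 6 pairs passed the exact permutation test after adjustment. The share of all gene pairs that reach a given r was taken under quantile normalization only.

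Hsp90ab1 had a negative r with each of the other 3. It was -0.40 with Dnajc3 (exact p = 0.365, rho = -0.50 at exact p = 0.267), -0.34 with Hspa5 (exact p = 0.468, rho = -0.29 at exact p = 0.556) and -0.29 with Serpinh1 (exact p = 0.556, rho = -0.29 at exact p = 0.556). The adjusted p of these 3 pairs was 0.834 for r. Leaving out the 2 arrays farthest from the median of the first-named gene leaves 5 arrays over a narrower range of that gene, too few to read a relation from. There r was -0.53 for Dnajc3 and Hspa5, 0.22 for Dnajc3 and Serpinh1, 0.77 for Dnajc3 and Hsp90ab1, 0.70 for Hspa5 and Serpinh1, -0.64 for Hspa5 and Hsp90ab1 and 0.28 for Serpinh1 and Hsp90ab1. Without transgenic replicate 3 alone, r was -0.22 for Dnajc3 and Hspa5, 0.34 for Dnajc3 and Serpinh1, 0.04 for Dnajc3 and Hsp90ab1, -0.30 for Hspa5 and Serpinh1, -0.08 for Hspa5 and Hsp90ab1 and 0.23 for Serpinh1 and Hsp90ab1.

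The first sitting alone held 5 transgenic arrays, fewer than the 6 set here as the least for reading a correlation. Over its 8 arrays of both genotypes, with group means removed and values permuted within groups, r was 0.18 for Dnajc3 and Hspa5 and 0.44 both for Dnajc3 and Serpinh1 and for Hspa5 and Serpinh1. With Hsp90ab1 it was -0.51 for Dnajc3, -0.15 for Hspa5 and -0.42 for Serpinh1. The lowest adjusted p of r among these 6, in exact permutation, was 0.439. Spearman's rho was highest for Hspa5 and Serpinh1, at 0.67 (exact p = 0.0625, adjusted p = 0.375), and 0 of the 6 passed by either measure. Over all pairs of genes on the 7 transgenic arrays, the 5th and 95th percentiles of r were -0.70 and 0.70, a range that holds all 6 chaperone pairs.

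**Figure D4:**
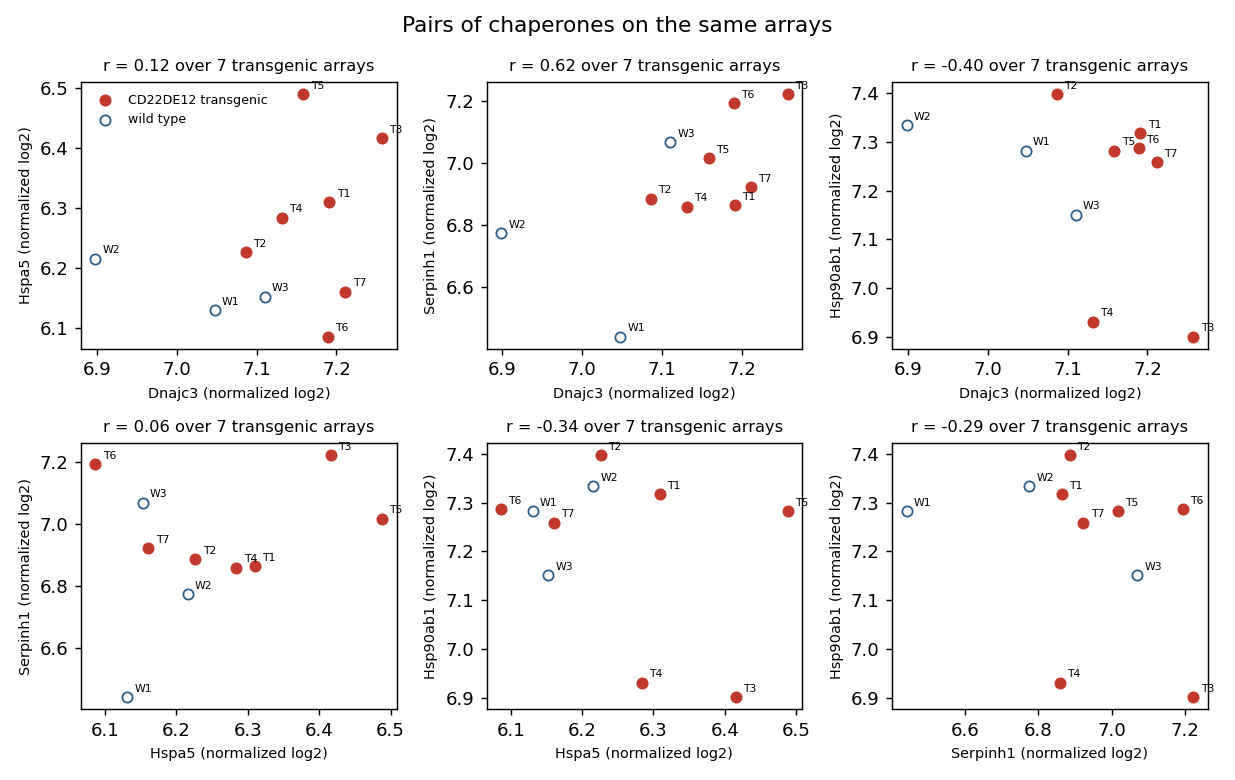
Normalized log2 signal of 1 chaperone against another (both axes) for the 6 pairs, each point 1 array, red for the 7 transgenic and open blue for the 3 wild-type arrays, with r over the transgenic arrays above each panel. The highest r is 0.62 for Dnajc3 and Serpinh1, and transgenic replicate 3 has the highest or lowest transgenic value on at least 1 axis of every panel.

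For each chaperone, the 3 genes most like it were taken by Pearson's r of normalized log2 signal over the 10 arrays, among the 356 other genes above background on all of them. These values describe arrays that share hybridisation and imaging, and carry no p. Group means were not removed, so the group difference by which the chaperones were chosen enters them. Dnajc3 was most like Ywhah (r = 0.90), the eta form of the 14-3-3 adaptor proteins, whose spots lie in the same block of the membrane, 2 rows and 4 columns away. It was followed by a gene printed as the split hand/foot gene (0.82) and Myl6 (0.81), a myosin light chain. Serpinh1 was most like a gene printed as plasminogen activator inhibitor (0.95), which lies in the same columns of the same block 4 rows away, followed by Ywhah (0.82) and Myl6 (0.80). Ywhah and Myl6 thus came up for both Dnajc3 and Serpinh1, with group differences of their own of 0.19 and 0.32. Over the transgenic arrays alone, r with Ywhah was 0.91 for Dnajc3 and 0.86 for Serpinh1, and r with Myl6 was 0.85 and 0.59. Myl6 lies in the same block as Serpinh1, 10 rows and 2 columns away.

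Hspa5 was most like Cxcl9 (0.86), a chemokine induced by interferon gamma, then Gstp1 (0.82), a glutathione transferase, and Krt18 (0.80), an epithelial keratin. Hsp90ab1 was most like the beta 2 subunit of the GA-binding transcription factor (0.92), the vascular endothelial growth factor receptor Flt1 (0.86) and the DNA repair protein Xrcc1 (0.79). The 3 lists of Hspa5, Hsp90ab1 and Dnajc3 had no gene in common.

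Beyond the 4 chaperones, 6 of 37 listed genes of the unfolded protein response and of PKR were on the membrane. Of these, 0 of 6 passed the adjusted threshold (0% of all genes) and 5 had a higher transgenic mean, with a median difference of 0.074 against 0.0018 for all genes. Pdia4, or ERp72, a disulfide isomerase of the reticulum, was at 6.50, 6.45, 6.46, 6.51, 6.38, 6.73 and 6.58 on transgenic replicates 1 to 7 and at 6.31, 6.33 and 6.48 on the wild-type arrays. All 7 transgenic arrays lay above the wild-type mean, the 2 of the second sitting highest, and the groups overlapped. The difference was 0.14 (SE 0.069) and limma's adjusted p was 0.704.

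Sdf4, or Cab45, a calcium-binding protein of the secretory pathway, had the largest difference of the list, 0.35 (SE 0.14, limma's adjusted p = 0.602), and was the only 1 of the 6 with an unadjusted p under 0.05, against 7.37% of all 597 genes. It was above background on 5 arrays only, and its local background passed 100 grey levels on 9. Gadd45a, a growth arrest gene of the stress response, differed by 0.09, Nfe2l2, the regulator of the oxidative stress response and a substrate of PERK, by 0.06, and Atf4, the transcription factor whose translation follows eIF2 alpha phosphorylation, by 0.03 with signal above background on 4 arrays. Ddit3, or CHOP, the pro-apoptotic factor of the response, differed by -0.05. The 4 had adjusted p-values of 0.936 to 0.971 in limma's fit. The list's median was 0.024 without wild-type replicate 3, and without background correction it was -0.035, with 2 genes higher.

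Of 70 listed heat shock and chaperone genes other than the 4, 9 were on the membrane, 4 with a higher and 5 with a lower transgenic mean. Their median difference was -0.017, and 0 of 9 passed an adjusted or an unadjusted p of 0.05. The 3 higher genes of lowest p were Hspb1, or HSP27, at 0.06 (SE 0.038), Bag1, a nucleotide exchange factor of HSP70, at 0.07 (SE 0.053) and Hsf1, the main heat shock factor, at 0.03 (SE 0.060). Hspb1 was above background on 4 arrays only. The 3 lower genes were the HSP70-related Hspa4l at -0.03 (SE 0.041), the mitochondrial chaperonin Hspd1 at -0.05 (SE 0.076) and the heat shock factor Hsf2 at -0.02 (SE 0.034). The list's median was 0.024 without wild-type replicate 1 and 0.011 without wild-type replicate 3. Centring on the housekeeping genes put all 9 on the higher side, while it moved the median of all genes to 0.065. Of the 12 genes of these lists with a promoter in the RefSeq table, 0 held the endoplasmic reticulum stress element as written above and 1, Hspd1, held the heat shock element.

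Hsp90aa1, the stress-inducible cytosolic HSP90 and the close paralogue of Hsp90ab1, is printed directly beneath it on the membrane. It read 7.38, 7.19, 7.17, 7.20, 7.31, 7.14 and 7.08 log2 units on transgenic replicates 1 to 7 and 7.37, 7.16 and 7.20 on the wild-type arrays. It was not low on transgenic replicates 3 and 4, where Hsp90ab1 was lowest, and its local background there was 101 and 75.3 grey levels. The difference was -0.03 (SE 0.067, limma's adjusted p = 0.983). No source used here gives the probes, so how far the spots of these 2 genes share labelled cDNA was not tested.

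**Figure D5:**
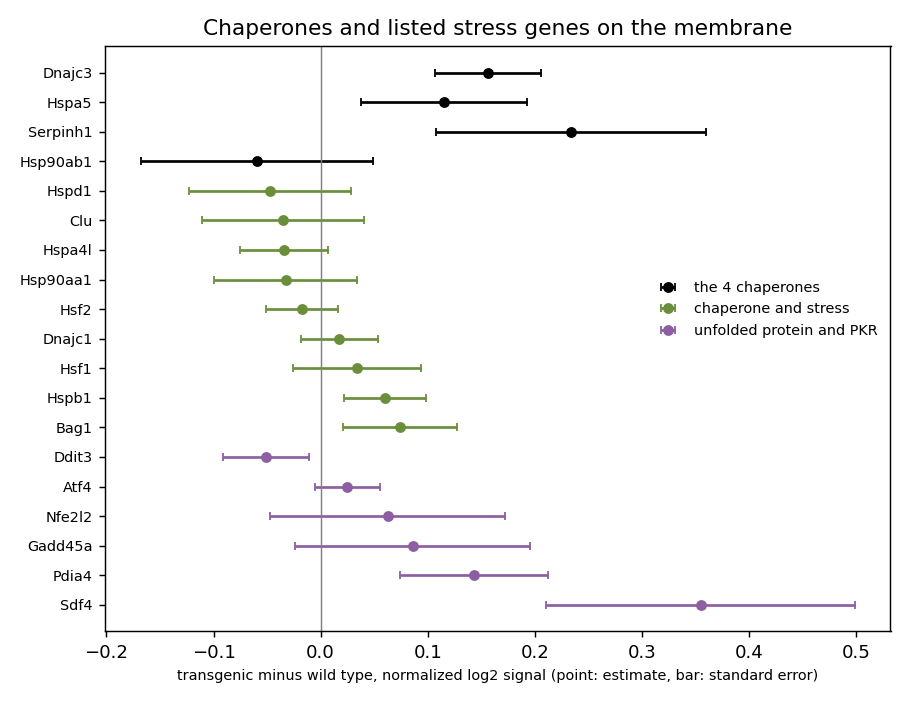
Transgenic minus wild-type difference in normalized log2 signal (horizontal axis; points are estimates and bars standard errors) for the 4 chaperones in black, 9 further chaperone and stress genes in green and 6 genes of the unfolded protein response and PKR in purple. Of the genes outside the 4, Sdf4 at 0.35 and Pdia4 at 0.14 lie farthest to the right, and the heat shock genes lie on both sides of 0.

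Genes tied to the work of Serpinh1 and Hsp90ab1 lay on both sides of 0. No collagen was among the 597 named genes. The 6 of 28 listed matrix genes that were had a median difference of 0.019, with 0 of 6 at an unadjusted p under 0.05. The metalloproteinase inhibitors Timp3 and Timp2 differed by 0.14 (SE 0.11) and 0.04 (SE 0.083), and the metalloproteinase Mmp9 by 0.04 (SE 0.046). Mmp9 was above background on 4 arrays only. Mmp14, Mmp11 and Mmp2 differed by -0.02, -0.0026 and -0.0014.

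Of 38 genes listed here as dependent on HSP90, mainly kinases and receptors, 22 were on the membrane. That dependence was not measured here. Of the 22, 9 had a higher and 13 a lower transgenic mean, with a median difference of -0.0026. Fes, a myeloid tyrosine kinase, was the only 1 of the 22 at an unadjusted p under 0.05, against 7.37% of all 597 genes, with a difference of -0.11 (SE 0.050, limma's adjusted p = 0.670). The T-cell kinases Lck and Fyn followed at -0.18 (SE 0.11) and -0.09 (SE 0.054). On the other side were the receptor Met at 0.06 (SE 0.041), the Src regulator Csk at 0.07 (SE 0.066) and the kinase Akt1 at 0.07 (SE 0.091). Met was above background on 7 arrays only.

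Cell types of the spleen differ in secretory load, and the mean levels of some of their listed markers differed between the groups beside the chaperones. All 6 B-cell markers on the membrane, above background on 10 of 10 arrays, had lower transgenic means, with a median difference of -0.11. Lower means were found for 288 of all 597 genes. The mean level of the 6 ran from 6.33 to 6.54 on the transgenic and from 6.49 to 6.68 on the wild-type arrays. Limma's unadjusted p was under 0.05 for 3 of the 6, Cd22, Pou2af1 and Cd40, against 7.37% of all 597 genes. The adjusted p of each of these was 0.559, the lowest among the 6. Cd22, the gene that the transgene's name carries, had the largest drop of the 6, -0.24. Local background at the Pax5 spots passed 100 grey levels on 10 of 10 arrays. Of 5 myeloid markers 4 were higher, with a median difference of 0.11 and mean levels of 6.52 to 6.75 against 6.46 to 6.58. In limma's test 1 of these 5 had an unadjusted p under 0.05. Of 3 erythroid markers 2 were higher, with a median difference of 0.15, the largest among the marker lists, and their mean level ran from 6.07 to 6.82 on the transgenic and from 6.21 to 6.44 on the wild-type arrays. T-cell markers were split 3 to 3, and stromal and endothelial markers 2 to 2. The single cytotoxic marker, Gzmb, differed by -0.02 and was above background on 4 arrays. None of the 7 listed plasma-cell markers was among the named genes. The part of these cell types in the chaperone values was not tested.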

How the data were processed

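Each deposited spot file holds the intensity, as a mean grey level, of every spot and of its local background ring, quantified by automatic segmentation of an inverted image and not normalized, per the file headers. Exposure and the meaning of the spot codes are stated nowhere in those files or labels. The authors also deposited a table of processed values, taken as log2 from their range; its 588 features carry no matched gene names, so it served for counts of genes only, and its scaling and centring are unknown.

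Of 1320 spots per array, 126 without a gene name were left out of normalization and tests. The printed names used here were matched by hand to 79 mouse symbols. Intensities were background-corrected (normexp, offset 50 grey levels), quantile normalized over gene spots, and duplicate spots were averaged on the log2 scale. The test was limma's moderated fit (version 3.58.1, R 4.3.3) across the 597 genes, two-sided and unfiltered, adjusted by Benjamini-Hochberg. The procedure was tested on simulated data whose changes were larger than the differences of the 4 chaperones, so differences of that size were not covered. Arrays correlated at 0.854 to 0.947 among transgenic and 0.924 to 0.954 among wild-type samples. The number of arrays limits the precision. Figures used Python 3.11.15 and matplotlib 3.10.9. Promoters came from the RefSeq table of GRCm38.p6.

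The 4 chaperones, the gene lists, the marker lists and the tests were chosen with earlier results of these data known. Named genes were the 4 chaperones, all listed genes on the membrane where a list had at most 8 there, otherwise the 3 of smallest unadjusted p in each direction, and the 3 genes most like each chaperone. Hsp90aa1 was added after its values were seen. Alternatives covered normalization, background correction, offset, single spots, the quantification sitting, filters, array weights and each array left out in turn.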

Additional observations from a re-analysis of the deposited data

Results flagged for a closer look

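Among the 44 sets of values searched over the transgenic arrays (the chaperones, the named list genes and the list means), 1 array stood apart from its group by Dixon's criterion, where chance gives about 1 in 20, or 2.2 of 44. Atf4, the transcription factor of the eIF2 alpha pathway, read 5.83 log2 units on transgenic replicate 2, while the 6 remaining arrays of that genotype ran from 5.72 to 5.76. The gene was above background on 4 of the 10 arrays.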

How the results depend on the processing

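Differences are transgenic minus wild type on the log2 scale. Dnajc3, Hspa5 and Serpinh1 were higher in the transgenic group under every alternative for which their difference was computed. Some alternatives, among them array weights and filters, gave counts of genes only. In no alternative that counted them did any gene pass the adjusted threshold or any of the 6 pairs pass. With no offset Dnajc3 differed by 0.25 (SE 0.19), Hspa5 by 0.34 (SE 0.27) and Serpinh1 by 0.45 (SE 0.27). With plain subtraction and a floor, Dnajc3 differed by 0.25 (SE 0.18) and Hspa5 by 0.32 (SE 0.26). With an offset of 200 Dnajc3 differed by 0.07 (SE 0.022). With 1 array left out, Dnajc3 ranged from 0.09 to 0.20, Hspa5 from 0.08 to 0.15, Serpinh1 from 0.07 (without wild-type replicate 1) to 0.38 (without wild-type replicate 3) and Hsp90ab1 from -0.11 to -0.0098. Hsp90ab1 changed sign with housekeeping centring (0.033), where the median difference of all genes was 0.065, and without background correction (0.08). It also changed sign without arrays of high local background at its spots (0.051), an alternative chosen after seeing the data.

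Genes at an unadjusted p under 0.05 numbered 44, with median centring 29 and with housekeeping centring 24, and 30 to 49 with 1 array left out. Genes whose groups did not overlap numbered 10, with housekeeping centring 6, with the first spot only 16, in the first sitting 24, and 11 to 37 with 1 array left out.

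The median of the heat shock and chaperone list, -0.017, was 0.00087 with median centring, 0.046 with housekeeping centring (9 genes higher instead of 4), 0.074 without background correction, -0.050 both with subtraction and with no offset, 0.041 and 0.015 from the first and second spot alone, 0.0014 in the first sitting, 0.0013 with sitting as a block, and -0.025 to 0.024 with 1 array left out. It was positive without wild-type replicate 1 (0.024) or 3 (0.011). The median of the unfolded protein list, 0.074, was -0.035 without background correction (2 genes higher instead of 5), 0.34 with subtraction, 0.31 with no offset, and 0.024 to 0.12 with 1 array left out. The cause of these changes was not tested.

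Among the pairs, r of Dnajc3 and Hsp90ab1 was 0.11 with median centring, 0.014 with housekeeping centring, 0.078 without background correction, 0.77 without the 2 farthest arrays, and -0.80 to 0.036 with 1 array left out. For Hspa5 and Serpinh1 it was 0.65 with median centring, 0.70 with housekeeping centring, -0.0052 with subtraction, -0.0084 with no offset, -0.10 from the first spot, and -0.30 to 0.62 with 1 array left out. For Dnajc3 and Hspa5 it was -0.036 over all 10 arrays with group means removed, -0.53 without the 2 farthest arrays, 0.75 with median centring, 0.57 with cyclic loess, 0.76 with housekeeping centring, and -0.22 to 0.28 with 1 array left out. Serpinh1 and Hsp90ab1 had 0.079 without background correction, 0.28 without the 2 farthest arrays, and -0.70 to 0.23 with 1 array left out, and Hspa5 and Hsp90ab1 had 0.80 without background correction. Leaving out transgenic replicate 3 alone turned the sign of 4 of the 6 pairs. Hspa5 and Serpinh1 also turned sign without transgenic replicate 7 (-0.034).

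No paired analysis was possible because the 2 groups share no replicate numbers that pair samples in the labels. Hspa5 lay 7.45 and 10.8 grey levels above background in the second sitting, and Hsp90ab1 spots lay near their array's brightest grey level on transgenic replicates 3 and 4; the part of either was not tested.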
